A study of Mus musculus with 2 samples.

Results

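The regions described here are 1 kb stretches of the mouse autosomes in which the control library of an NcoA3 ChIP-seq experiment held many reads. Each chromosome was cut into fixed 1 kb bins from position 1 on the mm8 assembly, and a bin was a member when 30 or more input reads had their 5′ end in it. Of 2264780 autosomal bins with any read, 8448 met this rule. The rule used the input counts, so the height of the input in these bins, and any ChIP to input ratio, is a description of what was chosen and not a finding. The ChIP counts, the strand of the reads, their exact start positions and the places of the bins were not used by the rule. The set is described as piles of reads in its working name, and most of its bins are not tall: 8216 of the 8448 bins held 30 to 59 input ends, and 232 held 60 or more.

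Both libraries came from E14 cells, a feeder-free mouse embryonic stem cell line kept undifferentiated on gelatin with leukaemia inhibitory factor (LIF). The ChIP group is 1 library of chromatin precipitated with an antibody against NcoA3, with 8 to 10 µg of antibody per 600 µg of chromatin. The control group is 1 library named input by its title, although IgG is entered as its antibody; the labels do not settle which it was, and the word input is used for it. The labels give no genotype change, treatment or time for either group, and no culture or passage that would tell replicates apart. Single-end reads of 35 bp came from libraries amplified over 14 cycles, with 11509916 reads deposited for ChIP and 15125180 for input. With 1 library in each group no difference has a replicate check, and every interval (95%, exact binomial) covers counting error only.

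NcoA3 is a steroid receptor coactivator: it is brought to DNA by nuclear receptors and in turn brings in histone acetyltransferases, and in embryonic stem cells it works with the orphan receptor Esrrb. An input library samples chromatin without regard to any one protein, and serves to show where reads gather for other reasons. Mouse chromosomes carry the centromere at one end, and the assembly opens each of them with a gap for sequence that was not assembled, so the first mappable bases lie nearest to the centromeric satellite arrays. Repeats that are present in many copies in the cell but in few copies in the assembly draw reads from all copies to the same place, and such places are commonly masked before peaks are called.

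ChIP counts differed between members of low and high input, and varied widely within each class. In the 7055 bins with 30 to 39 input ends the median was 32 input ends and 4 ChIP ends, where equal representation would give 24.2 ChIP ends. The 1161 bins with 40 to 59 input ends had a median of 43 input and again 4 ChIP ends, and the 2264780 bins overall had a median of 6 input and 5 ChIP ends. Most members therefore held no more ChIP ends than an ordinary bin. The 100 bins with 60 to 99 input ends had a median of 72 input and 24 ChIP ends, and the 132 bins with 100 or more had medians of 160.5 and 103. The median ChIP count rose sharply near 60 input ends, but the bins there were mixed. The value of 60 is a dividing line chosen after the data were seen. The 189 bins of 50 to 59 input ends had a median of 6 ChIP ends (quartiles 4 and 10), and the 47 bins of 60 to 69 had 20 (quartiles 6 and 42.5). Of those 47, 21 held 10 or fewer ChIP ends, against 2 of the 19 bins of 70 to 79.

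The same contrast stands in the ratios, scaled by the autosomal reads of each library so that 0.755 ChIP ends are expected per input end. The pooled ratio was 0.2499 over the whole set (interval 0.248 to 0.252). It was 0.189 in bins of 30 to 39 ends, 0.194 at 40 to 59, 0.578 at 60 to 99 and 0.726 at 100 or more. With 1 end added to each library, the median ratio of single bins was 0.199, 0.162, 0.448 and 0.805 in the same order. ChIP counts were 0 in 227 bins, all of them under 60 input ends. At the limit itself, 1373 bins held exactly 30 input ends and 1648 held 29, and both groups had a pooled ratio of 0.206, so the limit does not mark a step in the ratio.

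**Figure D1:**
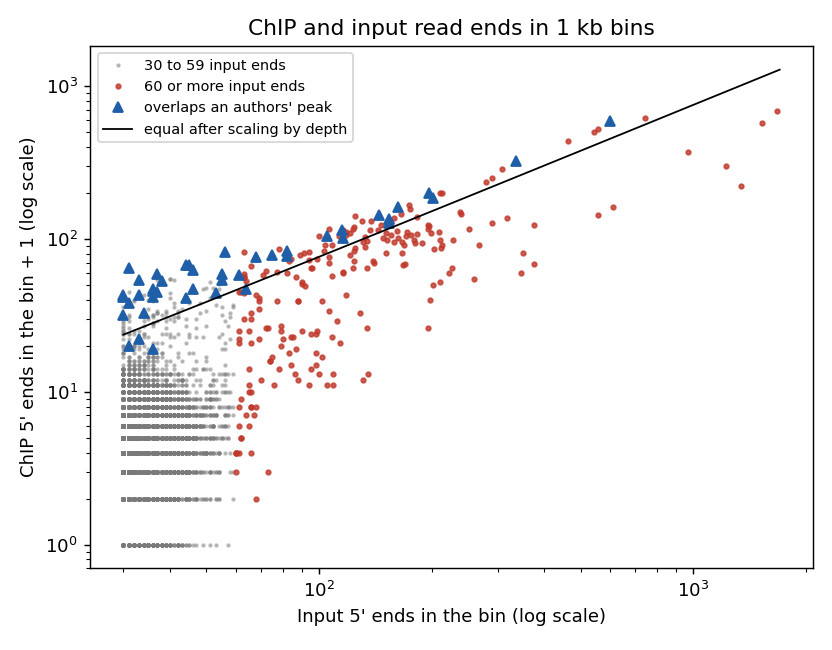
ChIP 5′ ends plus 1 (vertical, log scale) against input 5′ ends (horizontal, log scale) in each of the 8448 bins; grey points hold 30 to 59 input ends, red points 60 or more, blue triangles overlap an authors' peak, and the line marks equal counts after scaling by depth. Most grey points lie far below the line, around 4 ChIP ends, while many red points lie along it.

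Because high input was the ground for choice, bins were also chosen on the plus strand and the ratio taken from the minus strand. The 12376 bins with 15 or more plus-strand input ends, another set, had a pooled ratio of 0.287 (interval 0.284 to 0.290) in their minus-strand reads. Both strands come from the same input library and their counts were close to even in nearly every member, so this ratio is not free of the choice. The exact two-sided binomial test, over 1368097 bins with 10 or more ends in both libraries together and with Benjamini-Hochberg adjustment, called 7191 members lower and 12 higher in the ChIP library. Of all tested bins, 2.15% were called lower and 0.386% higher, and nothing is read from the members' counts because the rule used the same input. It is a test between 2 libraries, not between conditions. When the surrounding 100 kb set the scale of each bin, 1292 members (15.3%) were called lower, where 0.203% of tested bins were, and 17 were called higher, where 0.0565% were. The chosen input stays in that test too, so nothing is read from these counts either.

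The surroundings of the smaller members were themselves rich in input. The 100 kb around a bin of 30 to 59 ends, the bin left out, had a median ratio of 0.504 and a median of 12.6 input ends per kb, against 1.16 and 5.52 around all bins. The bins stood 2.70 times above these surroundings in the input (median). Over the whole set, the bins just outside each single member or stretch of adjacent members gave 14438 values, with a median of 16 input and 5 ChIP ends. A bin between members was counted once for each side. Input counts were thus high around and within the members taken as a set, while the median ChIP count was 4 to 5 ends. For bins of 100 or more ends the surroundings held a median of 101.8 input ends per kb, and 90.9% of them had another member beside them. This depended on place. Around bins of 60 or more ends the median was 116.7 within 1 Mb of the chromosome's first read and 10.2 elsewhere. Those bins stood 1.56 and 8.83 times above their surroundings in the input (medians, same order).

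Most members stood alone. Of the 8448 bins, 6375 had no member beside them, and the other 2073 (24.5%) formed 844 runs, of which 785 were 2 or 3 bins long and 35 were 5 or more. The share in runs rose with the count: 20.3% of bins with 30 to 39 ends, 38.4% at 40 to 59, 75% at 60 to 99 and 90.9% at 100 or more had a neighbour in the set. The longest run by far lay at 3025001 to 3100000 of chromosome 11, with 75 bins in a row. The next 3 all lay on chromosome 17, at 6387001 to 6398000 (11 bins), 6399001 to 6409000 (10 bins) and 6374001 to 6383000 (9 bins). The fifth, at 73522001 to 73530000 of chromosome 8, was 1 of 3 runs of 8 bins.

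These long runs differed in what the ChIP library showed. In the chromosome 11 run the input count per bin ran from 38 to 556 with a median of 156, and the ChIP count from 8 to 145 with a median of 93. Its pooled ratio was 0.666 (interval 0.646 to 0.686). The 3 runs on chromosome 17 had pooled ratios of 0.438, 0.384 and 0.407, with intervals that overlapped one another (0.374 to 0.510, 0.331 to 0.445 and 0.343 to 0.482). All 3 intervals lay below that of chromosome 11. In the chromosome 8 run the input ranged from 31 to 58 per bin and the ChIP count from 0 to 9, which gave a ratio of 0.128 (interval 0.0869 to 0.182), the lowest of the 5.

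Members were spread unevenly over the chromosomes. Chromosome 8 held 1338 of them, or 15.8% of the set against 6.46% of autosomal input ends. Chromosome 11 held 915 (10.8% against 6.29%) and chromosome 17 held 588 (6.96% against 4.20%). At the other extreme, chromosome 13 held 147 (1.74% against 4.50%) and chromosome 3 held 193 (2.28% against 5.63%). On chromosome 8, 1133 of the 1338 lay between 53000001 and 111000000, a stretch of high read density in which a bin held a mean of 9.41 input ends against 6.44 on the other autosomes. The members of that stretch had a median ratio of 0.227, and 17 of them held 60 or more input ends. A fixed count limit is passed more easily where reads are dense, and the part of this in the excess on chromosome 8 was not tested.

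**Figure D2:**
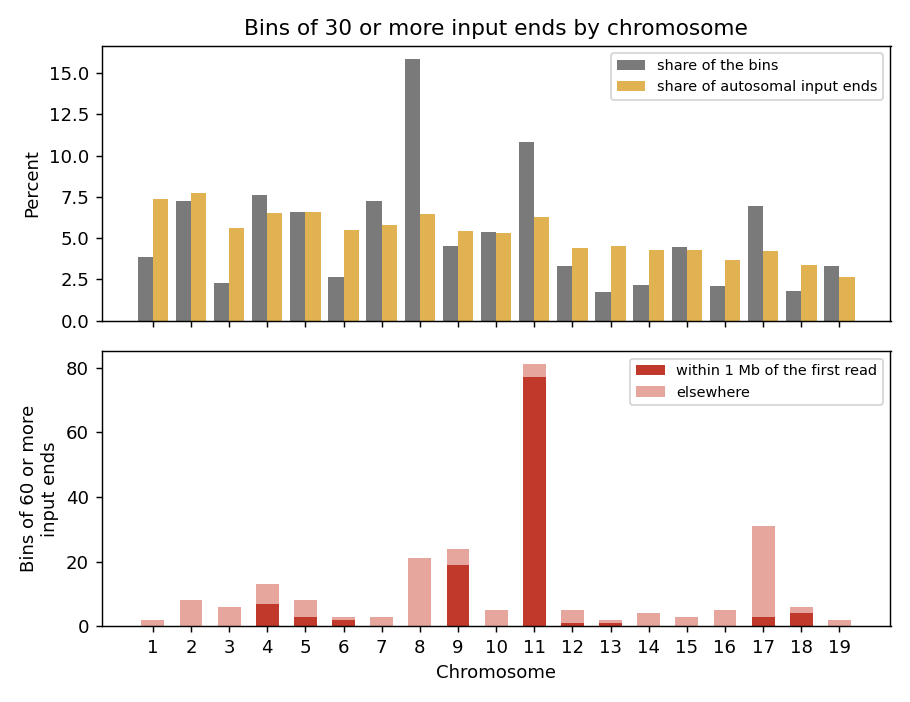
Upper panel: the percent of the 8448 bins on each autosome (grey) beside the percent of autosomal input ends (yellow). Lower panel: the number of bins with 60 or more input ends, divided into those within 1 Mb of the chromosome's first read (dark red) and the rest (light red). Chromosome 8 has the largest share of the bins at 15.8%, while chromosome 11 has the most bins of 60 or more, 77 of 81 near its start.

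The ends of chromosomes next to the centromere held a large share of the tallest bins. Within 1 Mb of the chromosome's first bin with a read lay 193 members (2.28%), where 0.747% of all bins lie. The share was 0.836% at 30 to 39 input ends, 1.46% at 40 to 59, 23.0% at 60 to 99 and 71.2% at 100 or more. Of the 117 bins of 60 or more ends in these end regions, 113 were within 100 kb of the first read. They were not on every chromosome: chromosome 11 held 77 of them, chromosome 9 held 19, chromosome 4 held 7, chromosome 18 held 4, chromosomes 5 and 17 held 3 each, chromosome 6 held 2, and chromosomes 12 and 13 held 1 each. The remaining 10 autosomes had no bin of this height there. Bins of 60 or more had a pooled ratio of 0.803 (interval 0.785 to 0.822) in the end regions and 0.591 (interval 0.576 to 0.606) elsewhere. Single places weighed heavily in both. Such bins at 3027001 to 3100000 of chromosome 11 supplied 12719 of the 19271 input ends in the end regions, at a ratio of 0.670. Those at 39451001 to 39457000 of chromosome 17 supplied 7325 of the 19220 elsewhere, at 0.418. The pooled values therefore do not describe every place.

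The 10 bins with the most input ends came from 4 places. Chromosome 17 supplied 6 of them, as an unbroken stretch from 39451001 to 39457000. Its first bin held 1336 input and 222 ChIP ends, and the next, at 39452001 to 39453000, held 1668 and 687, the highest counts of either library. The bin at 39453001 to 39454000 held 1523 and 574, and that at 39454001 to 39455000 held 966 and 371. The last 2, at 39455001 and 39456001, held 609 and 161, and 1223 and 298. All 6 were below equal representation, with ratios of 0.220, 0.545, 0.499, 0.509, 0.350 and 0.323 along the stretch.

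The tallest of these input counts came near the most that the deposited files can hold. No start position and strand occurs more than once in either library, so a 1 kb bin can hold at most 2000 ends, and the bin at 39452001 had 83.4% of its positions filled by input reads and 34.4% by ChIP reads. Over the 6 bins input reads filled 61.0% of positions, from 30.4% at 39455001 upwards. A library that fills most positions cannot show further reads there, which pulls the ratio towards equal. If reads fell at random over the positions, the counts before repeats were removed would give a ratio of 0.310 for this bin in place of 0.545, a calculation chosen after the data were seen. The same calculation moved the pooled ratio of bins with 100 or more ends from 0.726 to 0.634, and left bins under 60 ends at 0.188 against 0.189.

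The other 4 of these 10 bins lay on chromosomes 5, 2 and 11. The first kb of chromosome 5 with reads, at 3000001 to 3001000, held 741 input and 620 ChIP ends, a ratio of 1.11 (interval 0.994 to 1.23). On chromosome 2 the bins at 98467001 to 98468000 and 98463001 to 98464000 held 600 input against 596 ChIP ends and 556 against 522. Their ratios were 1.32 (interval 1.17 to 1.48) and 1.24 (interval 1.101 to 1.404). The bin at 3093001 to 3094000 of chromosome 11, inside the run of 75, held 556 input and 142 ChIP ends, a ratio of 0.338 (interval 0.279 to 0.407). The tall piles thus lay on both sides of equal representation, and the intervals of the chromosome 2 and chromosome 17 bins did not overlap.

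To describe the tall piles as places, bins of 60 or more ends were joined where they began no more than 10 kb apart, which gave 84 clusters, 58 of them a single bin. Their pooled ratios ranged from 0.0363 to 1.46. In 30 clusters the ratio was under 0.25, in 34 it was from 0.25 to 1, and in 20 it was 1 or more. The cluster at the start of chromosome 9, at 3000001 to 3039000, had 19 bins with 2490 input and 2233 ChIP ends and a ratio of 1.19 (interval 1.12 to 1.26). The one at 98463001 to 98469000 of chromosome 2 had 1737 and 1687 ends and a ratio of 1.29 (interval 1.20 to 1.38). On chromosome 14 the cluster at 18208001 to 18211000 reached 1.25, and on chromosome 15 that at 74912001 to 74915000 reached 0.564 (interval 0.484 to 0.656).

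The exact start positions of the reads separated the piles further. In bins of 30 to 39 input ends, 2.98% of ChIP starts fell on a position and strand where an input read also started, while input reads filled 1.65% of all positions. In bins of 100 or more ends the figures were 55.2% and 11.7%. Over all autosomal bins they were 0.878% and 0.326%, and in bins of 20 to 29 ends 1.75% and 1.15%. In the tall bins, ChIP and input reads therefore started at the same bases far more often than the filled share alone.

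Sharing differed between places, which also differed in how many positions the input filled. The cluster of 2 bins at 35054001 to 35056000 of chromosome 9 shared 97.8% of its 312 ChIP starts with the input, which filled 8.22% of the positions there. The single bin at 39187001 of chromosome 14 shared 96.0% of 200 with 9.85% filled. The chromosome 2 cluster shared 89.4% of 1687 with 17.4% filled, the start of chromosome 5 83.3% of 1356 with 26.0% filled, and the start of chromosome 9 81.9% of 2233 with 6.55% filled. Far less was shared in the cluster at 6391001 to 6408000 of chromosome 17, with 3.66% of its 328 ChIP starts and 4.03% of positions filled. The cluster at 3027001 to 3100000 of chromosome 11, the largest by input at 33.0% of all ends in bins of 60 or more, shared 18.4% with 8.83% filled. In the first 5 places most ChIP reads began where input reads began, and in that chromosome 17 cluster the shared percent lay near the percent of positions filled.

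**Figure D3:**
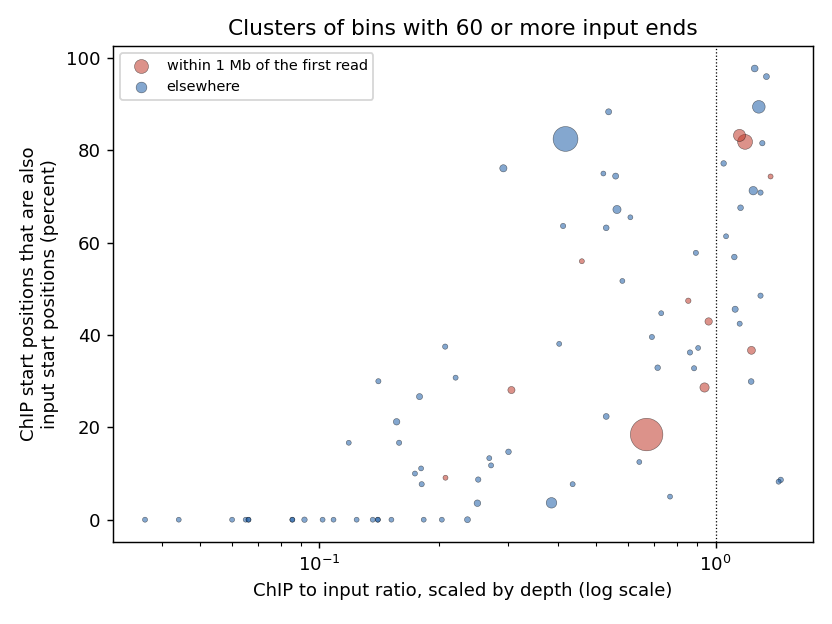
Each of the 84 clusters of bins with 60 or more input ends, with the ChIP to input ratio on the horizontal axis (log scale) and the percent of ChIP start positions that are also input start positions on the vertical axis; point area grows with the input ends, and red marks clusters within 1 Mb of the chromosome's first read. Clusters at a ratio of 1 or more share a median of 69.2%, and those under 0.25 a median of 0%.

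Grouped by ratio, these clusters shared more where the ratio was higher, but single clusters varied widely. Of ChIP starts, 75.6% were shared in the 20 clusters at a ratio of 1 or more, 36.1% in the 34 between 0.25 and 1, and 11.9% in the 30 under 0.25. Input reads filled 8.42%, 9.35% and 3.80% of positions in the same order, so the last group had fewer positions that could match. The 6 bins of chromosome 17 from 39451001 were apart from this order, with 82.5% shared at a ratio of 0.418, and there input reads filled 61.0% of positions. Other clusters were apart from it too. On chromosome 4 those at 146363001 and 145493001 had ratios of 1.46 and 1.44 but shared 8.63% and 8.24%. The cluster at 108827001 of chromosome 11 shared 76.1% at a ratio of 0.291, with 10% of positions filled. Low ChIP counts limit the value in the lowest group, where 26 of the 30 clusters were single bins. The surroundings followed the same order: the median ratio of the 100 kb around was 1.23, 0.773 and 0.571.

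Strand balance was close to even in the input and less so in the ChIP library. Over the set, 49.96% of input ends and 49.7% of ChIP ends were on the plus strand. In bins of 100 or more ends the plus share of single bins had a median of 50% in the input (10th to 90th percentile 43.7% to 55.6%) and 48.7% in the ChIP library (33.1% to 65.5%). Fewer ChIP ends widen the second range. In the exact binomial test against the library's own plus share, 3 of 8448 members had unequal input strands, where 0.000702% of 427351 tested bins did, and these 3 were the whole of the calls. In the ChIP library 18 of 763 members with 10 or more ends were unequal, where 0.0158% of 151752 did, so members made up 18 of the 24 calls. This count depends on the filter: among bins with 20 or more ChIP ends 72 of 326 members (22.1%) were called, where 8.69% of 1576 tested bins were, and with no filter 11 of 8221 (0.134%), where 0.000595% were. The filter sets how many bins enter the adjustment. All bins of 20 to 29 input ends together had 0 calls in either library. Few ends leave the adjusted test little room to call a bin, so this 0 is largely set by the counts. The same limit holds for the low shares over all tested bins. Tall bins give the test more power, and 15 of the 18 held 60 or more input ends.

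The 3 bins with unequal strands in both libraries leaned the same way in each. At 98466001 to 98467000 of chromosome 2 the input had 1 plus and 43 minus ends and the ChIP library 3 and 37, with 35 of the 40 ChIP starts shared. At 57313001 to 57314000 of chromosome 16 the counts were 8 and 47 in the input and 2 and 33 in the ChIP library. At 35054001 to 35055000 of chromosome 9 they were 86 and 30, and 83 and 31. The adjusted p in the input was 2.19e-06 for the bin on chromosome 2, 0.0172 for the bin on chromosome 16 and 0.0182 for that on chromosome 9 (exact binomial test). The other 15 bins were called in the ChIP library and not in the input.

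Among those 15, chosen for display after their values were seen, 7 lay within 1 Mb of the chromosome's first read. Of all tested members, ChIP strands were called unequal in 5.15% of 136 within that distance and 1.75% of 627 elsewhere. Among members of 60 or more input ends the order was the other way, with 5.98% of 117 and 8.51% of 94. At 3017001 to 3018000 of chromosome 4 the input had 138 plus and 151 minus ends, while the ChIP library had 177 and 74, a plus share of 70.5% (interval 64.5% to 76.1%) against 47.8% (interval 41.9% to 53.7%). At 3000001 to 3001000 of chromosome 5 the input had 379 and 362, and the ChIP library 248 and 372, or 40% plus (interval 36.1% to 44.0%; adjusted p = 0.00730, exact binomial test). At 3004001 to 3005000 of chromosome 11 the ChIP library had 24 plus and 92 minus ends against 46 and 60. At 18209001 to 18210000 of chromosome 14 it had 286 and 154 against 236 and 225. The lean went to the plus strand in some places and the minus strand in others.

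A test of the difference itself, Fisher's exact test of strand by library over 33111 bins with 10 or more ends in each library, was added after these values were seen. It called 1 bin, or 0.00302% of those tested: the bin at 3017001 of chromosome 4, with an adjusted p of 0.00286. The next smallest among the named bins was 0.0903, at 3084001 to 3085000 of chromosome 11, with 83 plus and 69 minus input ends against 80 and 17 in the ChIP library. For the other bins a strand lean in the ChIP library that the input lacks was not shown. Ends that start at neighbouring positions may not be independent, so these p-values describe the reads of 2 libraries.

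**Figure D4:**
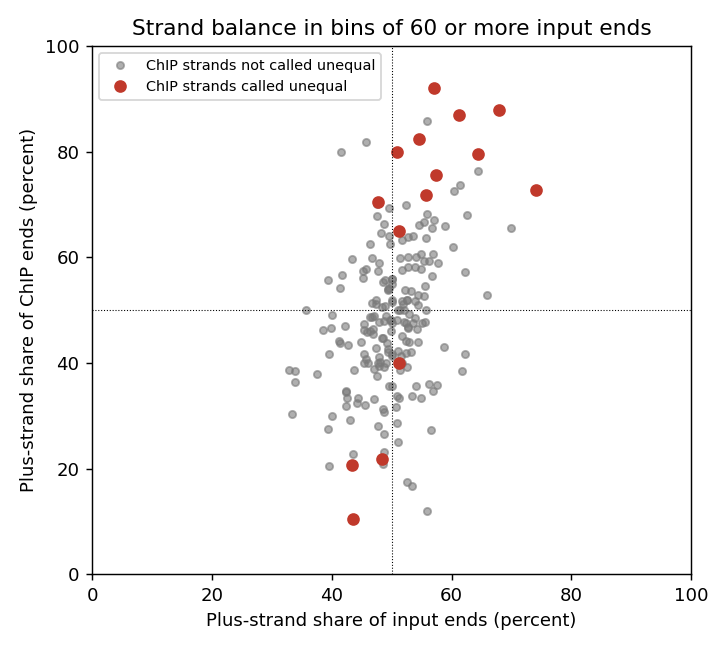
Plus-strand share of ChIP ends (vertical, percent) against that of input ends (horizontal, percent) in bins with 60 or more input and 10 or more ChIP ends; red points have unequal ChIP strands in the exact binomial test and dotted lines mark even strands. The 15 red points lie both above and below the even line, and the input shares stay nearer to even than the ChIP shares.

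Few members coincided with the peaks called by the authors. By an overlap of 1 bp or more, 43 of the 8448 bins (0.509%) touched a peak, where 0.151% of all bins did, and 26 of the 2017 peaks (1.29%) touched a member. The share was 0.241% at 30 to 39 input ends, 0.775% at 40 to 59, 6% at 60 to 99 and 8.33% at 100 or more. The caller worked on the same reads, so this is a description. The overlapping bins had a pooled ratio of 1.35 (interval 1.29 to 1.41) against 0.237 for the members outside peaks.

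In the authors' deposited table the 26 peaks had a median of 151 tags, against 15 in the other 1991. Their median fold enrichment in the authors' deposited table was 2.68 against 4.85, and the empirical false discovery rate was 100% for all 26 and for 1988 of the other 1991. Their median score in the authors' deposited table was 79.9 against 65.97, and the best of them ranked 128 of 2017. Their own ChIP to input ratio, from unmoved 5′ ends within the peak, had a median of 1.56 and lay between 1.18 and 2.23. The 26 peaks were picked for touching bins of high input, and the fold is a ratio over local background. Their lower fold and higher tag count thus partly follow from the rule and are a description.

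The 26 peaks divided by how many tags the authors' deposited table counts for each ChIP end left in the reads as deposited. The caller allowed 2 tags per position and the deposited reads hold 1, and the caller's counts may also differ at peak edges. In 12 peaks the quotient was 1.49 to 1.94, and a median of 82.8% of their ChIP starts were shared with the input (range 48.1% to 96.2%). In the other 14 it was 0.972 to 1.27, and a median of 4.77% were shared (range 0.926% to 38.9%). The first kind had ratios from 1.18 to 1.51, and the second from 1.20 to 2.23 with a median of 1.79. The limit of 1.4 between them was set after the values were seen.

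The 5 peaks of highest score that touched a member show both kinds. The peak at 98464306 to 98465173 of chromosome 2, with a score of 204.91 in the authors' deposited table, held 324 ChIP and 336 input ends (ratio 1.28, interval 1.09 to 1.49) and shared 80.2% of its ChIP starts. The peak at 98466910 to 98468297 beside it shared 96.2%. The peak at 144713280 to 144716705 of chromosome 4 held 182 ChIP and 150 input ends (ratio 1.61, interval 1.29 to 2.01) and shared 7.14%. The peak at 34525045 to 34526205 of chromosome 11 held 84 and 57 ends (ratio 1.95, interval 1.38 to 2.78) and shared 20.2%. The peak at 27964851 to 27968098 of chromosome 13 held 108 and 74 ends (ratio 1.93, interval 1.42 to 2.63) and shared 0.926%. By chromosome, 9 of the 26 were on chromosome 4, more than on any other.

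Of the 5 members with the highest ratios, 4 lay at peaks of the authors. The bin at 144705001 to 144706000 of chromosome 4 held 31 input and 64 ChIP ends, a ratio of 2.73 (interval 1.75 to 4.34). The bins at 146430001 and 146368001 of chromosome 4 held 33 and 53, and 37 and 58, and that at 116061001 of chromosome 12 held 44 and 67. These 4 touched a peak. The fifth, at 173377001 to 173378000 of chromosome 1, held 37 input and 56 ChIP ends (ratio 2.004, interval 1.30 to 3.12) and touched none. The intervals of the 5 overlapped, so their order is uncertain. Of the 12 members called higher in the ChIP library, 7 touched a peak. The 5 that did not, named after their values were seen, were that bin and those at 98463001 of chromosome 2, 3001001 of chromosome 5, 18209001 of chromosome 14 and 3067001 of chromosome 11.

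The members with the lowest ratios held 0 ChIP ends. They lay at 73527001 of chromosome 8 with 57 input ends, 87091001 of chromosome 8 with 53, 113588001 of chromosome 12 with 51, 49745001 of chromosome 11 with 49 and 79666001 of chromosome 7 with 47. A count of 0 allows up to 3 ends, which is a ratio of 0.0697 for the first and 0.0845 for the last. The surrounding 100 kb had ratios of 0.315, 0.450, 0.288, 0.834 and 0.500. The bins were picked for their low ratio, so these values are a description.

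The choice was also made on the ChIP library, at 23 or more ChIP ends, which is the same limit after scaling by depth. It gave 960 bins with a pooled ratio of 1.24 (interval 1.22 to 1.25), of which 59.4% touched a peak, where 0.151% of all bins did. This choice favours high ChIP counts, and the peaks were called from the same reads, so both values are a description. The bins found by both choices numbered 300, which was 31.2% of the ChIP choice and 3.55% of the input choice. They included 177 of the 232 members of 60 or more input ends (76.3%) and 123 of the 8216 below that (1.497%). Piles of 60 or more input ends were thus mostly over the ChIP limit, and bins of 30 to 59 were, apart from those 123, under it. That limit matches 30 input ends after scaling, so a taller pile can pass it with a low ratio. The pooled ratio of bins of 60 or more was 0.697 (interval 0.685 to 0.709).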

How the data were processed

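Aligned reads of 1 NcoA3 ChIP and 1 input library were used as deposited by the authors. Their build is mm8, per the submitters' processing notes, and which aligner placed them is not stated in those sources. Each start position and strand occurs at most once. The authors called peaks with MACS 1.4.1 at a p-value limit of 1e-05, per the file headers. Their deposited list holds tags as counts, a score (the negative log10 p-value times 10), a fold enrichment (a ratio over local background) and a false discovery rate in percent.

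5′ ends, not moved, were counted in 1 kb bins with pandas 2.3.3 and numpy 2.4.6 under Python 3.11.15, tested with scipy 1.17.1 and drawn with matplotlib 3.10.9. Libraries were scaled by 11154268 ChIP and 14772205 input autosomal ends. Binomial tests were two-sided and exact, with Benjamini-Hochberg adjustment over all bins with 10 or more ends and a limit of 0.05; with local scaling, the smaller tail was doubled. Tests were tested on simulated counts. The members and lists were chosen with earlier results of these data known. Named bins were the 10 with most input ends, the 5 longest runs, the 5 highest and 5 lowest ratios (ties by input ends) and the 5 overlapping peaks of highest score. No mm8 annotation was used here, so genes are not named.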

Additional observations from a re-analysis of the deposited data

Results flagged for a closer look

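The rule covers autosomes, and reads piled up outside them too. Chromosome X held 43 bins of 30 or more input ends, with 3511 input and 1330 ChIP ends, a ratio of 0.502, and at most 212 input ends in a bin. The mitochondrial genome held 13 such bins, every one of its 13 bins with reads, with 6726 input and 3939 ChIP ends and a ratio of 0.776. Chromosome Y held 0, and its fullest bin had 9 input ends. The bins were picked for 30 or more input ends, so their height is a description. They lie in data that the autosomal comparisons leave out, and the cause of these piles was not tested.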

How the results depend on the processing

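Of 98 alternative values, 34 stayed near those reported; the rest follow, and their cause was not tested unless the setting itself removes bins. At a limit of 20 input ends there were 50723 bins with a ratio of 0.262, 45.2% lower and 0.0473% higher in ChIP, 0.00591% with unequal input strands and 0.576% with unequal ChIP strands, 0.2504% on a peak, 45.6% in runs, 0.936% near starts and 6.07% of ChIP starts shared. At 50 ends there were 421 bins, with a ratio of 0.605, 1.43% higher, 0.475% and 6.56% with unequal strands, 4.99% on a peak, 49.2% in runs, 29.5% near starts and 48.9% shared. Chosen on the ChIP library, 960 bins had a ratio of 1.24, the opposite direction, with 4.69% lower and 41.1% higher. Of all tested bins 2.15% and 0.386% were, and a choice on ChIP counts itself favours this direction. Of the 960 bins, 59.4% were on a peak, where 0.151% of all bins were, 43.0% were in runs and 13.6% near starts. Chosen on plus-strand input, the ratio was 0.287, with 19.7% lower, 0.0889% higher, 23.4% in runs and 1.75% near starts. Moving bins by 500 bp gave 0.0708% higher, 0.0236% with unequal input strands and 25.5% in runs. Moving ends inward gave a ratio of 0.247 and 0.0917% higher, scaling by reads outside the bins a ratio of 0.246, and local scaling 15.3% lower. Without bins of 100 or more ends the ratio was 0.199, 0.951% had unequal ChIP strands and 6.41% of starts were shared. Without bins near starts the ratio was 0.213, with 23.4% in runs and 14.8% shared. A filter of 20 ends gave 0.308% higher and 22.1% with unequal ChIP strands, and no filter 0.0829% higher, 0.0118% with unequal input strands and 0.134% with unequal ChIP strands. An overlap of 500 bp left 0.367% on a peak, and peaks with a score of 100 or more 0.166%. Within 100 kb of the first read lay 1.59%, and allowing 1 bin between members put 30.6% in runs.

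Chosen after seeing the data were the division at 60 ends, the clusters, the strand comparison between libraries, the correction for filled positions and these settings. Without bins of 60 or more ends the ratio was 0.189, with 0.0852% higher, 0.543% with unequal ChIP strands, 0.316% on a peak, 22.3% in runs, 0.925% near starts and 4.06% shared. Without chromosome 8 the ratio was 0.258, with 20.6% in runs, 2.63% near starts and 22.5% shared. No paired analysis was possible because each group has 1 library. Depth limits single bins: with a median of 4 ChIP ends, strands could be tested in 763 members, and repeats of a start position are not in the reads as deposited.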

Other observations

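On chromosome 17 the runs at 6374001, 6387001 and 6399001 followed one another within 35 kb, with median input counts of 57, 82 and 55 per bin for the runs of 11, 10 and 9 bins. Few ChIP starts there were shared with the input, 1.80%, 4.26% and 3.83%, and their plus shares in the input were 48.5%, 49.6% and 49.2%. No member of these 3 runs touched a peak.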
